A study of Mus musculus with 2 samples.

Results

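Lymphatic endothelial cells were picked out of the lungs of chimeric mice by their own transcripts, as cells with at least 1 UMI of at least 3 of 5 genes: Prox1, Mmrn1, Ccl21a, Reln and Flt4. A UMI (unique molecular identifier) is 1 counted transcript molecule. Of the 8297 cells that passed the filters, 80 met this gate. They comprised 5 of 4945 cells of the donor library and 75 of 3352 cells of the recipient library. The mice were C57Bl mice that had been given a suspension of single cells labelled with tdTomato, a red fluorescent protein, and their lungs were taken 6 months after the transplantation. The lungs of 3 chimeric mice were digested and pooled, and live cells without CD45, the surface protein of leukocytes, were sorted. Cells with tdTomato gave the donor library and cells without it, labelled as C57BL recipient cells, gave the recipient library, both from the same 3 chimeric lungs and each on the 10x Genomics droplet platform. The series sets out to follow long-term chimerism, and it names lymphatics among the donor-derived clusters.

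Each sort gave 1 library, and the mice within it cannot be told apart. There was therefore no replicate and no test, and every interval below is a 95% interval that covers counting error only. Age, sex, and any treatment before the transplantation are not given in the sources used here. Enzymatic digestion and the CD45 gate set which cells were recovered, so the shares below are shares of sorted cells.

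Lymphatic capillaries take up tissue fluid and cells through loose, overlapping junctions and pass them to collecting vessels that carry valves and muscle. Their endothelium is specified from veins by the transcription factor Prox1, grows in response to VEGF-C through the receptor VEGFR3 (gene Flt4), and secretes the chemokine CCL21, which draws dendritic cells and T cells that carry CCR7. In the lung, lymphatic vessels run along the airways and larger blood vessels, and they drain fluid from the tissue.

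The 5 genes that define the gate differ in what they encode. Prox1 encodes the homeodomain factor that sets and keeps lymphatic identity, Mmrn1 the secreted glycoprotein multimerin 1, Reln the matrix glycoprotein reelin, and Ccl21a a CCL21 chemokine. Their start regions are shown because they alone decided which cells were members. Each is the RefSeq window of 250 bases before to 50 bases after a gene start on GRCm38.p6, written 5′ to 3′ on the gene's own strand. Capitals mark matches to 3 short motifs searched on both strands, the nuclear receptor core AGGTCA, the SOX core ACAAAG and the ETS core CGGAAG. Prox1 has a pair of RefSeq windows, and the downstream one is printed because it holds a match.
Prox1 (chr1:190169466-190169765, minus strand): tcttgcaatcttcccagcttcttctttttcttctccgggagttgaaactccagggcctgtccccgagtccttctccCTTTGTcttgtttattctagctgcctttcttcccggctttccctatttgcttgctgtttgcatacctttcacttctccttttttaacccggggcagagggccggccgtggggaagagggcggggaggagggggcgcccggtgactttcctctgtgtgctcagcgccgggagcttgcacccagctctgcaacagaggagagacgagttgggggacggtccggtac
Mmrn1 (chr6:60944067-60944366, plus strand): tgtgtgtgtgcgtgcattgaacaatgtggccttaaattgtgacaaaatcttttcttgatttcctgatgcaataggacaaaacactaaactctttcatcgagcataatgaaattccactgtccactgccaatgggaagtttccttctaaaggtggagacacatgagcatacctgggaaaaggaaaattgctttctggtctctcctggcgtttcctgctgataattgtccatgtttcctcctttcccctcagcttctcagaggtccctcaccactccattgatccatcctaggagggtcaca
Ccl21a (chr4:42773942-42774241, minus strand): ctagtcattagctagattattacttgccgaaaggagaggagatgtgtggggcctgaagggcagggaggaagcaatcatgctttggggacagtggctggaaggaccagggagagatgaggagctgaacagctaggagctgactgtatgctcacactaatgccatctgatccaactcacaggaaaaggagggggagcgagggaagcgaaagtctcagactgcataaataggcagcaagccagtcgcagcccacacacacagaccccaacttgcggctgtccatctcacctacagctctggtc
Reln (chr5:22344656-22344955, minus strand): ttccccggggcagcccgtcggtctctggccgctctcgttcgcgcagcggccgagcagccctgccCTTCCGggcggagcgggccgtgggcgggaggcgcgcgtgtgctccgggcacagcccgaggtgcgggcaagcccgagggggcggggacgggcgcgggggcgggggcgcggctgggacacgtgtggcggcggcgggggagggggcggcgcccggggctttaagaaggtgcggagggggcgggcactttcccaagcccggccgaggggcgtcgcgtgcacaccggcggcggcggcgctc
Flt4 (chr11:49609429-49609728, plus strand): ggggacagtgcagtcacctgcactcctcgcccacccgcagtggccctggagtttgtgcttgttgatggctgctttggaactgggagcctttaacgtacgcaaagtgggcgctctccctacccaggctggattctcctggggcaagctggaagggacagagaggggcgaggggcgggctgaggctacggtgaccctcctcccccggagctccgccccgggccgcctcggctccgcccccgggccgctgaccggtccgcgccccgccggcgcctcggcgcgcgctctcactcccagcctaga
The Prox1 window holds the SOX core as its reverse complement CTTTGT, and the Reln window holds the ETS core as CTTCCG. The Mmrn1, Ccl21a and Flt4 windows hold none of the 3 motifs. Of all 32851 RefSeq windows of this length, 18.7% hold the SOX core, 16.9% the ETS core and 16.3% the nuclear receptor core, so single matches are common. A match describes letters in the window and says nothing about binding.

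In the recipient library the limit of the gate lay where cells were sparse. With 0 gate genes there were 2566 cells, with 1 there were 660, and with 2 there were 51. Only 4 cells had exactly 3, against 21 with 4 and 50 with all 5. Just outside the gate, 35 of the 51 cells with 2 genes had the pair Ccl21a and Flt4, with a median of 1 and a maximum of 2 Ccl21a UMIs. Just inside it, the 4 cells with 3 genes held 53, 1, 3 and 79 Ccl21a UMIs. The cell with a single Ccl21a UMI had no Mmrn1, Maf or Nrp2 UMI but 41 UMIs of Plvap and 30 of Gpihbp1, which are genes of blood capillaries. In the donor library 16 cells had 2 gate genes, 0 cells had 3, 1 cell had 4 and 4 cells had all 5.

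Within the 75 recipient-library lymphatic cells the gate genes were high, by construction. Ccl21a ranged from 1 to 803 UMIs per cell with a median of 239, Mmrn1 from 0 to 51 with a median of 14, and Flt4 from 1 to 34 with a median of 6. Reln ranged from 0 to 14 with a median of 3, and Prox1 from 0 to 13 with a median of 2. Prox1 was detected in 60 of the 75 cells and Reln in 62. Summed over the cells and scaled to counts per 1000000 UMIs of the group (CPM), Ccl21a stood at 44016 CPM in lymphatic cells and 15.2 CPM in blood endothelium, and Prox1 at 434 and 0.625 CPM. These values chose the cells and are given as a description. Ccl21a needs care for another reason. The transcript of its near copy Ccl21b matched it at 400 of 402 aligned bases (99.5%), and Ccl21b was counted at 0 UMIs in both groups, so the counts given to Ccl21a may hold molecules of either copy.

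**Figure D1:**
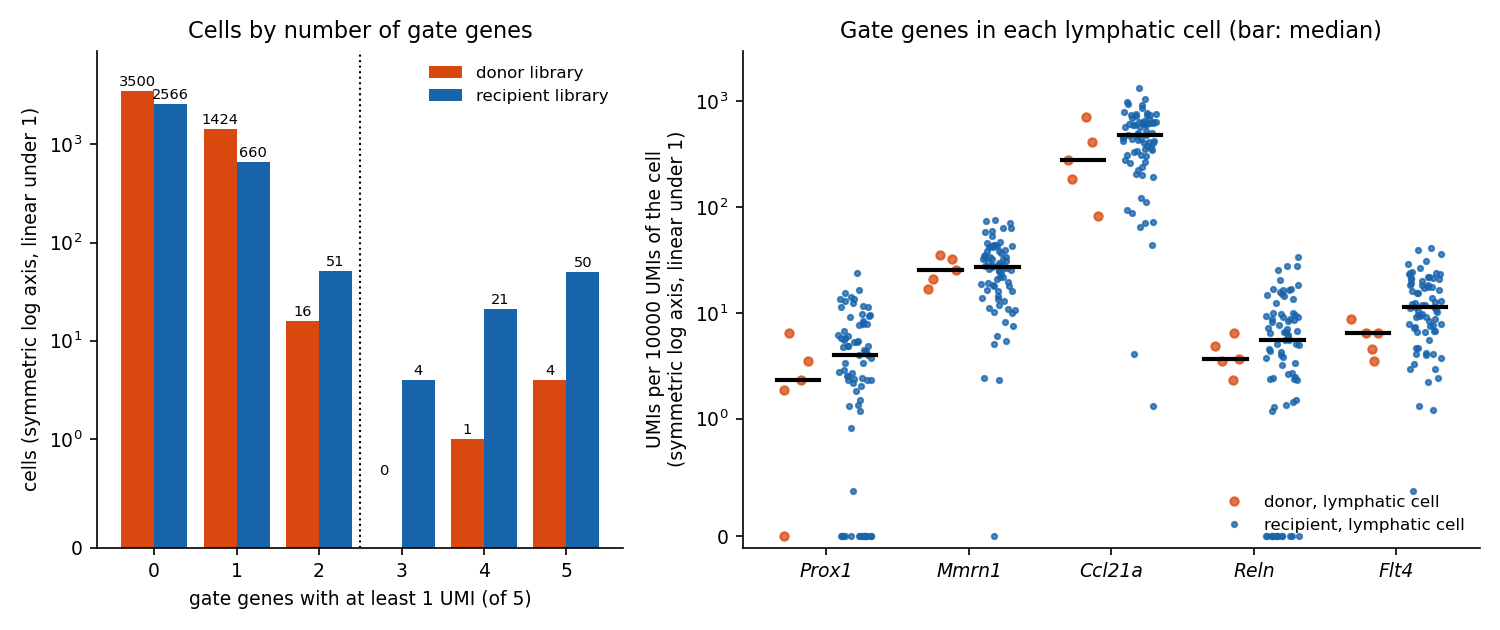
Left, number of cells (symmetric log axis) by the number of gate genes with at least 1 UMI, donor and recipient libraries side by side, with the dotted line at the limit of the gate. Right, UMIs of each gate gene per 10000 UMIs of the cell (symmetric log axis) in each of the 5 donor-library and 75 recipient-library lymphatic cells, with bars at the medians. Few cells lie next to the limit, 51 recipient-library cells with 2 genes and 4 with 3.

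Blood endothelium was taken as the cells with at least 1 UMI of Cdh5, the gene of the endothelial cadherin of cell junctions, that failed the lymphatic gate. Such cells numbered 4751 among donor-library and 1457 among recipient-library cells. Lymphatic cells were shallower than blood endothelial cells in the recipient library, with a median of 4880 UMIs per cell (range 1283 to 25894) against 6744 UMIs (1183 to 33949). The sums behind the comparisons were 456021 UMIs for lymphatic cells and 11208370 UMIs for blood endothelium. Over all deposited barcodes, the donor library held 6319 barcodes with 37997269 UMIs and the recipient library held 3784 with 26201315 UMIs. The libraries shared 816 barcodes, of which the copy with fewer UMIs was left out. Of the recipient-library cells, 13 lymphatic and 158 blood endothelial cells carried a barcode also present in the donor library, whereas all 5 donor-library lymphatic cells had barcodes of their own. With every shared barcode left out of both libraries, lymphatic cells were 0.102% of donor-library and 2.35% of recipient-library cells, and the comparison with blood endothelium described below gave 1424 higher and 1498 lower genes in place of 1107 and 1504.

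Genes outside the gate, described below, fit the label lymphatic endothelium, and markers of other cell types were low in most of the cells. Of 8 leukocyte markers, Ptprc, Laptm5, Coro1a, Tyrobp, Cd3e and Cd79a had 0 UMIs in the 75 cells, while Fcer1g had 17 UMIs in 3 cells and Cd52 had 2 UMIs in 1 cell. Summed over that list, the level was 41.7 CPM in lymphatic cells and 3.75 CPM in blood endothelium. Of 5 mesothelial markers, Msln, Wt1, Upk3b and Lrrn4 had 0 UMIs and Krt19 had 10 UMIs in 3 cells. Pericyte markers summed to 27 UMIs and fibroblast markers to 103 UMIs over the 75 cells. Alveolar type 1 markers summed to 909 UMIs, of which 757 lay in 1 cell, and the median cell held 2. At least 2 of the 5 leading markers of another class were found in 12 of 75 lymphatic cells, 6 with fibroblast, 6 with alveolar type 1 and 1 with alveolar type 2 markers.

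The blood endothelial group was less clean. At least 2 leading markers of another class were found in 698 of its 1457 cells, most often alveolar type 1 (453 cells), fibroblast (261) and pericyte (155). Summed over each marker list and scaled to 10000 UMIs of the cell, alveolar type 1 markers had a median of 2.88 (range 0 to 292) in lymphatic cells and 14.5 (0 to 511) in blood endothelium. Fibroblast markers had a median of 0 (0 to 27.8) and 0.836 (0 to 366), and pericyte markers 0 (0 to 13.6) and 0 (0 to 232). The part of these transcripts in the differences below was not tested. Leaving all such cells out of both groups kept 63 lymphatic and 759 blood endothelial cells, and counts under that setting are given for the 4 lists of valve, complement, MHC class I and interferon genes. In each of the other lists, the number of members at least 2-fold higher or lower changed by at most 2.

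Lymphatic cells were rare in the donor library and a few percent of the recipient library. They made up 0.101% of the donor-library cells (5 of 4945, exact Clopper-Pearson interval 0.0328 to 0.236) and 2.24% of the recipient-library cells (75 of 3352, 1.76 to 2.80). Among endothelial cells, that is lymphatic plus blood endothelium, they were 0.105% in the donor library (5 of 4756, 0.0341 to 0.245) and 4.90% in the recipient library (75 of 1532, 3.87 to 6.10). The intervals do not overlap. With 1 library per sort, the sort and the origin of the cells cannot be told apart.

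The comparison of lymphatic cells with blood endothelium was made within the recipient library, where both groups came from the same pool and run. Of 9901 genes with at least 10 CPM in either group and 20 UMIs in all, 1107 (11.2%) were at least 2-fold higher in lymphatic cells and 1504 (15.2%) at least 2-fold lower. The median log2 ratio of lymphatic over blood endothelium was -0.00028, so the scale itself was centred. Since the gate sorted cells by their transcripts, these differences describe the cells and were not tested.

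Beyond the gate, the largest ratios are described here for genes with at least 50 CPM in the higher group, found in at least 20% of its cells and with at most 25% of its UMIs in 1 cell. Ptx3, which encodes the secreted pattern recognition protein pentraxin 3 (chr3:66219910-66225805, GRCm38), had 1090 CPM in lymphatic cells and 0.446 CPM in blood endothelium, a log2 ratio of 11.25. It was detected in 72.0% of lymphatic cells and 0.343% of blood endothelial cells. Thy1, a surface glycoprotein best known from T cells and fibroblasts (chr9:44043384-44048579), had 520 and 0.446 CPM (log2 10.19) and a UMI in 81.3% and 0.343% of cells. Per cell, Thy1 ranged from 0 to 14 UMIs with a median of 2 in lymphatic cells and from 0 to 1 with a median of 0 in blood endothelium.

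A group of scavenger receptors stood beside them. Mrc1, the mannose receptor better known from macrophages (chr2:14229392-14332057), had 428 CPM in lymphatic cells and 0.625 CPM in blood endothelium (log2 9.42), with a UMI in 78.7% and 0.412% of cells. Stab2, a receptor that clears hyaluronan and is typical of liver sinusoids, had 211 and 0.357 CPM (log2 9.20) but was found in only 45.3% of lymphatic cells. Its relative Stab1 had 664 and 139 CPM (log2 2.26). Mrc1 and Stab1 are also macrophage genes, and 4 of the 75 cells had a UMI of a leukocyte marker. Over the other 71 cells Mrc1 stood at 422 CPM (log2 9.40), Stab1 at 668 CPM (2.26) and Stab2 at 192 CPM (9.07).

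The other genes with the largest ratios among these included transcription factors and enzymes. Tbx1, a T-box factor needed for lymphatic vessel growth in the mouse, had 289 CPM in lymphatic cells and 1.07 CPM in blood endothelium (log2 8.08). Hoxd9 had 27 UMIs in lymphatic cells and 0 in blood endothelium, at least 221-fold higher when 3 counts over the whole blood endothelial group stood in for 0. Hoxd4, of the same gene cluster, had 54.8 and 0.357 CPM (log2 7.26). Duox2, an oxidase that makes hydrogen peroxide, had 34 UMIs and 1 UMI, a ratio of 836 with an interval of 140 to 33966. Dtx1, which encodes a ubiquitin ligase of the Notch pathway, had 32 UMIs and 1 UMI, a ratio of 787 (131 to 32024). The rest of the 15 largest ratios among genes that met these limits were Pcsk6, a proprotein convertase (log2 8.29), Apba2 (8.17), Lrrn4cl (7.70), Cda, cytidine deaminase (7.64), Kcnn3, a calcium-gated potassium channel (7.56), and Slc45a3 (6.99).

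The lowest genes under the same limits included genes of blood capillaries. Car4, the carbonic anhydrase of lung capillaries, had 26.3 CPM in lymphatic cells and 1959 CPM in blood endothelium (log2 -6.22). Ly6c1 and Ly6a, surface proteins of mouse endothelium, had 65.8 and 147 CPM in lymphatic cells, against 2468 and 5307 CPM in blood endothelium (log2 -5.23 and -5.17). Ly6a was found in 24.0% of lymphatic and 91.5% of blood endothelial cells, with a median of 0 and of 31 UMIs per cell. Scn7a, a sodium channel gene, had 10.96 and 539 CPM (log2 -5.62).

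Cdkn2a, the locus of the cell cycle inhibitors p16 and p19Arf, was also among the lowest. It had 2 UMIs in lymphatic cells and 3497 in blood endothelium, 4.39 and 312 CPM, or 71.1-fold lower with an interval of 19.7 to 588. It was found in 2.67% and 35.8% of cells. The other genes among the 15 lowest had 1 or 2 UMIs in the lymphatic group and were 35.2-fold to 58.5-fold lower. They were Ceacam1, Gnao1, Tmeff2, Ptprg, Lrrc8b, Prdm1, Samd5, Gpnmb, Serpina3m and Aplnr. Aplnr encodes the apelin receptor, a gene of general capillary cells, and its interval of 6.31 to 1393 shows how little 1 UMI fixes such a ratio.

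**Figure D2:**
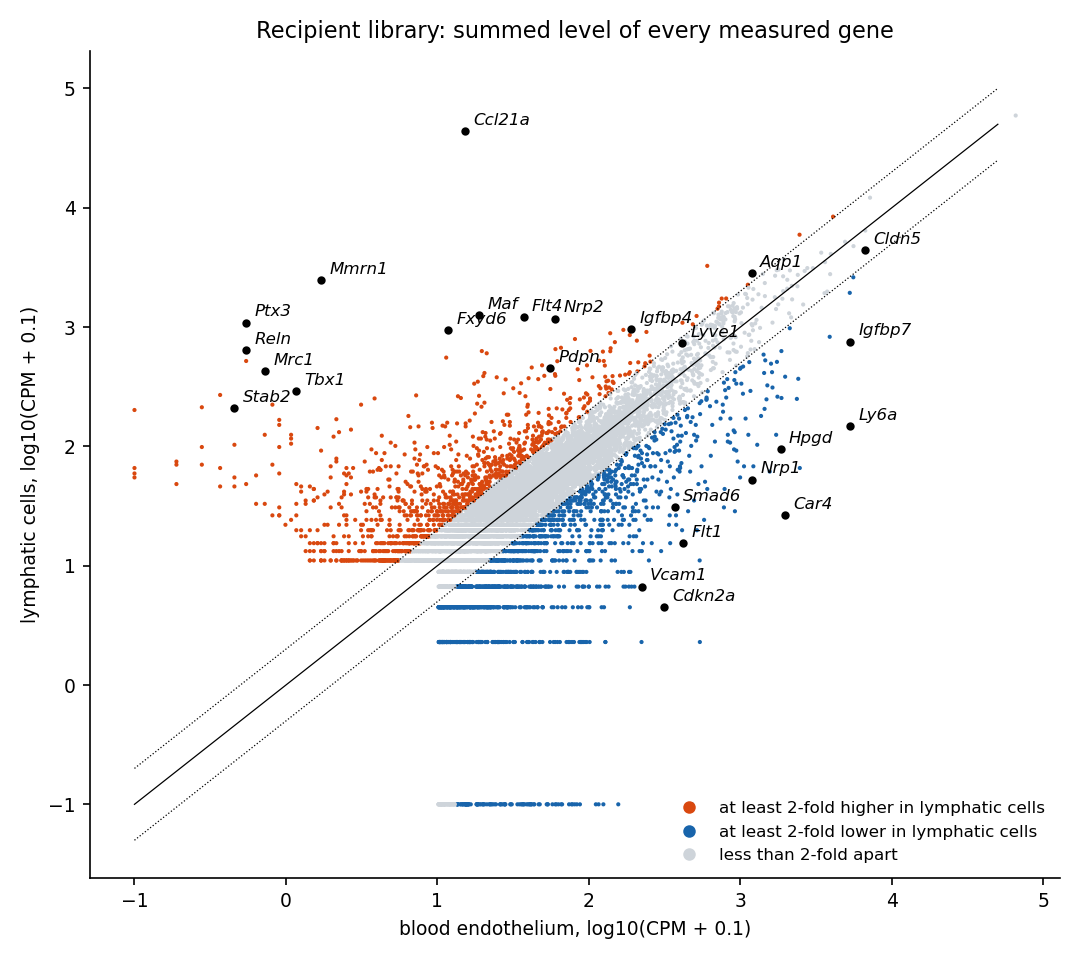
Level of each of the 9901 measured genes in recipient-library lymphatic cells (vertical) and blood endothelium (horizontal), as log10 of CPM plus 0.1. The solid line marks equal levels and the dotted lines a 2-fold difference, with genes at least 2-fold higher (1107) in orange and lower (1504) in blue. Ptx3, Mrc1, Stab2 and Tbx1 lie at the upper left, and Car4, Ly6a and Cdkn2a at the lower right.

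Of 22 further lymphatic identity genes that the gate did not use, 18 were at least 2-fold higher in lymphatic cells and 0 were lower, against 11.2% higher and 15.2% lower among all genes measured. Their median log2 ratio was 4.29. The same shares of all genes, 11.2% higher and 15.2% lower, are the background for each list compared with blood endothelium below. A list with counts near these shares is not set apart by them. Maf, a transcription factor of mature lymphatic endothelium, ranged from 0 to 33 UMIs per cell with a median of 7 in lymphatic cells, and from 0 to 7 with a median of 0 in blood endothelium. Its summed level was 1254 and 18.7 CPM (log2 6.06). Fxyd6, a regulator of the sodium pump, had 947 and 11.7 CPM (6.34). Podoplanin (Pdpn), the glycoprotein that separates lymph from blood by activating platelets, had 452 and 55.7 CPM (3.02). Ceruloplasmin (Cp), a copper-binding ferroxidase, had 653 and 60.0 CPM (3.44), and Lbp, which binds bacterial lipopolysaccharide, had 390 and 50.7 CPM (2.95).

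The 4 identity genes under 2-fold included the most widely used lymphatic marker. Lyve1, a hyaluronan receptor, had 732 CPM in lymphatic cells and 414 CPM in blood endothelium (log2 0.82), and it was detected in 58.7% and 48.8% of cells. Sox18, the factor that switches on Prox1 in the embryo, had 357 and 481 CPM (-0.43), Cd9 had 1454 and 1382 CPM (0.07), and Timp3, a protease inhibitor, had 1899 and 1075 CPM (0.82). Lyve1 and Sox18 therefore marked both groups of lung endothelium here. Nts, the gene of the peptide neurotensin, had the largest ratio of the list (log2 10.22) but came from 7 cells.

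Among 26 measured transcription factors of lymphatic or endothelial identity, 9 were at least 2-fold higher, Prox1 of the gate among them, and 5 lower, with a median log2 ratio of 0.77. Nr2f2 (COUP-TFII), the venous factor that partners with Prox1, had 888 CPM in lymphatic cells and 138 CPM in blood endothelium (log2 2.68). Its range was 0 to 19 UMIs per cell with a median of 5, against 0 to 25 with a median of 0. Nfatc1 (61.4 and 17.1 CPM, 1.84), Meox1 (204 and 66.7 CPM, 1.61) and Hoxd8 (22 UMIs and 1 UMI) were higher as well. Sox17, an arterial factor, had 24.1 and 120 CPM (-2.31), and Gata2, a factor of lymphatic valves, 41.7 and 217 CPM (-2.38). The general endothelial factors Erg, Fli1, Ets1, Tal1 and Lmo2 lay between 0.57 and 0.82, less than 2-fold apart.

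The receptors of the VEGF family divided the groups. Of 22 measured genes of VEGF-C, VEGFR3 and Tie signalling, 6 were at least 2-fold higher, Flt4 of the gate among them, and 11 lower, with a median log2 ratio of -1.12. The ligand genes Vegfc and Vegfd were low in lymphatic cells, 4.39 and 15.4 CPM, against 58.3 and 66.6 CPM in blood endothelium. Pgf, placental growth factor, had 349 and 18.4 CPM (4.25). VEGFR1 (Flt1), which binds VEGF-A and placental growth factor, had 15.4 and 421 CPM (-4.78) and a UMI in 6.67% and 78.2% of cells. VEGFR2 (Kdr) had 605 and 1120 CPM (-0.89).

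The co-receptors formed an opposite pair. Nrp2, which binds VEGF-C, had 1180 CPM in lymphatic cells and 59.8 CPM in blood endothelium (log2 4.30), with a UMI in 94.7% and 22.3% of cells. Nrp1, which binds VEGF-A, had 52.6 and 1192 CPM (-4.50) with a UMI in 5.33% and 90.1% of cells. Per cell, the medians were 5 Nrp2 and 0 Nrp1 UMIs in lymphatic cells, and 0 Nrp2 and 6 Nrp1 UMIs in blood endothelium. Itga9, the integrin chain of lymphatic valves, had 336 and 17.4 CPM (4.27). The Tie receptor genes differed less, with Tie1 at 469 and 334 CPM (0.49) and Tek at 87.7 and 224 CPM (-1.35). The adrenomedullin receptor genes Calcrl (311 and 1630 CPM, -2.39) and Ramp2 (829 and 3889 CPM, -2.23) were lower in lymphatic cells, while the gene of their ligand, Adm, had 112 and 55.8 CPM.

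Genes by which leukocytes enter and leave tissue were split between the 2 endothelia. Of 31 measured chemokine and leukocyte traffic genes, 8 were at least 2-fold higher, Ccl21a of the gate among them, and 14 lower, with a median log2 ratio of -0.56. Il7, a survival factor for lymphocytes, had 87.7 CPM in lymphatic cells and 3.84 CPM in blood endothelium (4.51), and Tnfrsf11a, the receptor RANK, had 57.0 and 0.535 CPM (6.73). The adhesion molecules that capture leukocytes from blood were lower. Vcam1 had 6.58 and 222 CPM (-5.08), P-selectin (Selp) 2.19 and 47.6 CPM (-4.44), Icam1 195 and 769 CPM (-1.98) and Icam2 384 and 1976 CPM (-2.36). The chemokine scavengers Ackr3 (52.6 and 243 CPM, -2.21) and Ackr2 (65.8 and 193 CPM, -1.55) were lower too, and Ackr4 had 0 UMIs in lymphatic cells and 18.5 CPM in blood endothelium. The chemokine genes Cxcl12 (81.1 and 211 CPM, -1.38) and Cx3cl1 (10.96 and 100.4 CPM, -3.19) were lower.

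Of 9 measured genes of sphingosine phosphate and purine signalling, 1 was higher and 3 lower, with a median of -0.41. Among all genes measured, 11.2% were higher and 15.2% lower. Spns2, the exporter of sphingosine phosphate in lymphatic endothelium, had 68.0 CPM in lymphatic cells and 78.2 CPM in blood endothelium (log2 -0.20). The receptor genes were S1pr1 (452 and 668 CPM, -0.56) and S1pr3 (2.19 and 40.2 CPM, -4.20). The adenosine receptor Adora2a was the higher member, at 26.3 and 7.23 CPM (1.86).

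Genes of collecting vessels and valves showed no common direction. Of 18 measured, 6 were at least 2-fold higher and 9 lower, with a median log2 ratio of -0.69. Leaving out cells with markers of other classes gave 4 higher and 9 lower. The connexin gene Gja1 had 629 CPM in lymphatic cells and 19.5 CPM in blood endothelium (5.01) and was found in 78.7% and 5.83% of cells. Celsr1, a gene of planar polarity, had 30.7 and 0.803 CPM (5.26). Foxc2, the master factor of valves, had 2 UMIs in lymphatic cells and did not reach the minimum level. Cldn11, a tight junction gene of valves, had 12 UMIs in lymphatic cells and 0 in blood endothelium. That is under the minimum of 20 UMIs in all, so Cldn11 was not among the measured genes either.

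Junction genes were mostly lower or level. Of 19 measured, 1 was at least 2-fold higher and 9 lower, with a median log2 ratio of -0.94. The higher gene was Jam3, a junctional adhesion molecule, with 70.2 CPM in lymphatic cells and 22.8 CPM in blood endothelium (1.62). Its relatives Jam2 (4.39 and 49.6 CPM, -3.50) and Esam (74.6 and 960 CPM, -3.69) and the tight junction gene Ocln (6.58 and 83.0 CPM, -3.66) were lower. Claudin 5 (Cldn5), the main claudin of endothelium, was less than 2-fold apart at 4425 and 6634 CPM (-0.58). Cdh5 itself stood at 493 and 1594 CPM (-1.69), but a Cdh5 UMI was required of blood endothelial cells and not of lymphatic cells, 9 of which had none.

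Matrix genes differed by member. Of 30 measured, 11 were at least 2-fold higher, Reln and Mmrn1 of the gate among them, and 10 lower, with a median log2 ratio of 0.11. The basement membrane genes Lama4 (458 CPM in lymphatic cells and 41.8 CPM in blood endothelium, 3.45), Nid2 (147 and 7.41 CPM, 4.31) and Col18a1 (121 and 20.6 CPM, 2.55) were higher. The collagen IV genes Col4a1 (289 and 609 CPM, -1.07) and Col4a2 (175 and 445 CPM, -1.34) were lower. Fbln5, of elastic fibres, stood at 478 and 97.1 CPM (2.30), Ltbp4 at 947 and 169 CPM (2.49) and Emilin1, which anchors lymphatic capillaries, at 189 and 70.8 CPM (1.41). Mgp, the matrix Gla protein, was lower at 419 and 1619 CPM (-1.95).

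Blood clotting genes were split. Of 16 measured, 6 were at least 2-fold higher, Mmrn1 of the gate among them, and 6 lower, with a median log2 ratio of 0.22. F8, coagulation factor VIII, had 158 CPM in lymphatic cells and 9.10 CPM in blood endothelium (4.12), while its carrier von Willebrand factor (Vwf) had 28.5 and 452 CPM (-3.99). Thrombomodulin (Thbd) was at 336 and 940 CPM (-1.49), and S100a10, part of the plasminogen receptor, at 910 and 240 CPM (1.92). Of 11 complement genes, 3 were higher and 4 lower, with a median of 0.28. The complement inhibitor gene Cd55 was among the higher ones, at 83.3 and 15.5 CPM (2.42). Without the cells that carried markers of other classes, the complement count was 5 higher and 1 lower, and Serping1, the C1 inhibitor, had a log2 ratio of 1.01 in place of -1.27.

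Of 39 measured blood endothelial genes, 31 were at least 2-fold lower and 1 higher, with a median log2 ratio of -2.03. The receptor Ednrb had 30.7 CPM in lymphatic cells and 779 CPM in blood endothelium (-4.67), the transcription factor Foxf1 43.9 and 787 CPM (-4.16), Tmem100 125 and 1723 CPM (-3.78) and the enzyme Hpgd 94.3 and 1845 CPM (-4.29). Epas1 (HIF-2alpha) had 125 and 1129 CPM (-3.18), and Cd34 48.2 and 528 CPM (-3.45). The exception was Aqp1, the water channel, with 2820 and 1189 CPM (1.25). Aqp1 ranged from 0 to 66 UMIs per cell with a median of 15 in lymphatic cells, and from 0 to 107 with a median of 8 in blood endothelium, so the cells overlapped widely.

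The fat uptake genes of capillaries were part of that difference. Cd36, the fatty acid transporter, had 61.4 CPM in lymphatic cells and 1562 CPM in blood endothelium (log2 -4.67) and a UMI in 14.7% and 86.5% of cells. Of 20 lipid genes, 9 were at least 2-fold lower and 4 higher, with a median of -0.93. The higher ones included Abca1, the cholesterol exporter (278 and 27.3 CPM, 3.35), and Fabp4, a fatty acid binding protein (94.3 and 31.0 CPM, 1.60). Of 8 caveola genes, 3 were lower and 1 higher (median -0.17). Cav1 and Cav2 had 360 and 366 CPM in lymphatic cells, against 913 and 819 CPM in blood endothelium, whereas Cavin3 had 857 and 186 CPM (2.20). Of 17 Notch pathway genes, 8 were lower and 2 higher (median -0.62). Notch1 had 186 and 183 CPM (0.03), Notch4 10.96 and 70.9 CPM (-2.69) and the ligand Dll4 52.6 and 127 CPM (-1.27).

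TGF-beta and BMP genes were mixed, with receptors and target genes of BMP signalling on the lower side. Of 23 measured, 12 were at least 2-fold lower in lymphatic cells and 6 higher, with a median log2 ratio of -1.34. The BMP receptor ALK1 (Acvrl1) had 261 CPM in lymphatic cells and 1757 CPM in blood endothelium (-2.75), Bmpr2 125 and 827 CPM (-2.73), and the BMP target genes Id1 (110 and 826 CPM, -2.91), Smad6 (30.7 and 368 CPM, -3.58) and Smad7 (43.9 and 347 CPM, -2.99) were lower as well. Per cell, Acvrl1 had a median of 1 UMI (range 0 to 15) in lymphatic cells and 13 UMIs (0 to 61) in blood endothelium. Higher in lymphatic cells were the TGF-beta receptor Tgfbr2 (632 and 102 CPM, 2.63), Tgfb3 (68.0 and 4.46 CPM, 3.93) and the BMP signal transducers Smad1 (373 and 39.9 CPM, 3.22) and Smad5 (116 and 30.2 CPM, 1.94).

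Of 23 semaphorin, plexin and guidance genes, 6 were at least 2-fold higher and 7 lower, with a median log2 ratio of 0.14. Sema3d had 224 CPM in lymphatic cells and 3.03 CPM in blood endothelium (6.20), Sema3a, which acts in lymphatic valves, 156 and 13.4 CPM (3.54) and the guidance cue Ntn1 366 and 46.2 CPM (2.99). Sema3c (68.0 and 342 CPM, -2.33) and Sema3g (8.77 and 82.7 CPM, -3.24) were lower. Of 11 genes of the IGF axis, 3 were higher and 3 lower (median -0.03). Igfbp4 had 956 and 190 CPM (2.33) with a UMI in 90.7% of lymphatic cells. Igfbp7, which is strong in blood vessels, had 757 and 5331 CPM (-2.82). Igfbp5 had 794 and 80.8 CPM (3.30), but it was found in only 14.7% of lymphatic cells, and 1 cell held 69.1% of its UMIs there.

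Antigen presentation and interferon genes were mostly lower or less than 2-fold apart. Of 13 MHC class I genes, 5 were at least 2-fold lower and 0 higher (median -0.92), and of 6 MHC class II genes, 3 were lower and 0 higher (median -1.01). Beta-2 microglobulin (B2m) had 1985 CPM in lymphatic cells and 3743 CPM in blood endothelium (-0.92), and Cd74, the class II invariant chain, 246 and 597 CPM (-1.28). Of 29 interferon-stimulated genes, 11 were lower and 2 higher (median -0.89). Ifi27l2a was the main exception, at 390 and 60.0 CPM (2.70). Leaving out cells with markers of other classes raised the counts of lower members to 10 of the class I list and 16 of the interferon list.

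Of 22 measured immediate early genes, which respond to tissue digestion, 14 were less than 2-fold apart, 2 were higher and 6 lower (median -0.36). Fos had 5947 CPM in lymphatic cells and 2459 CPM in blood endothelium (1.27). Of 18 p53 target genes, 2 were higher and 4 lower (median -0.25), with the inhibitor gene Cdkn1a at 476 and 938 CPM (-0.98). The counts of the immediate early and p53 lists stand against 11.2% higher and 15.2% lower among all genes measured. Of 25 cell cycle genes, only 4 reached the minimum level, 1 of them higher and 0 lower (median 0.43). Mki67, Top2a and Cdk1, which mark dividing cells, had 0 UMIs in all 75 lymphatic cells and 3.66, 7.49 and 2.23 CPM in blood endothelium. The interval for 0 UMIs in lymphatic cells reaches 8.09 CPM, above each of these levels, so no difference is shown.

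**Figure D3:**
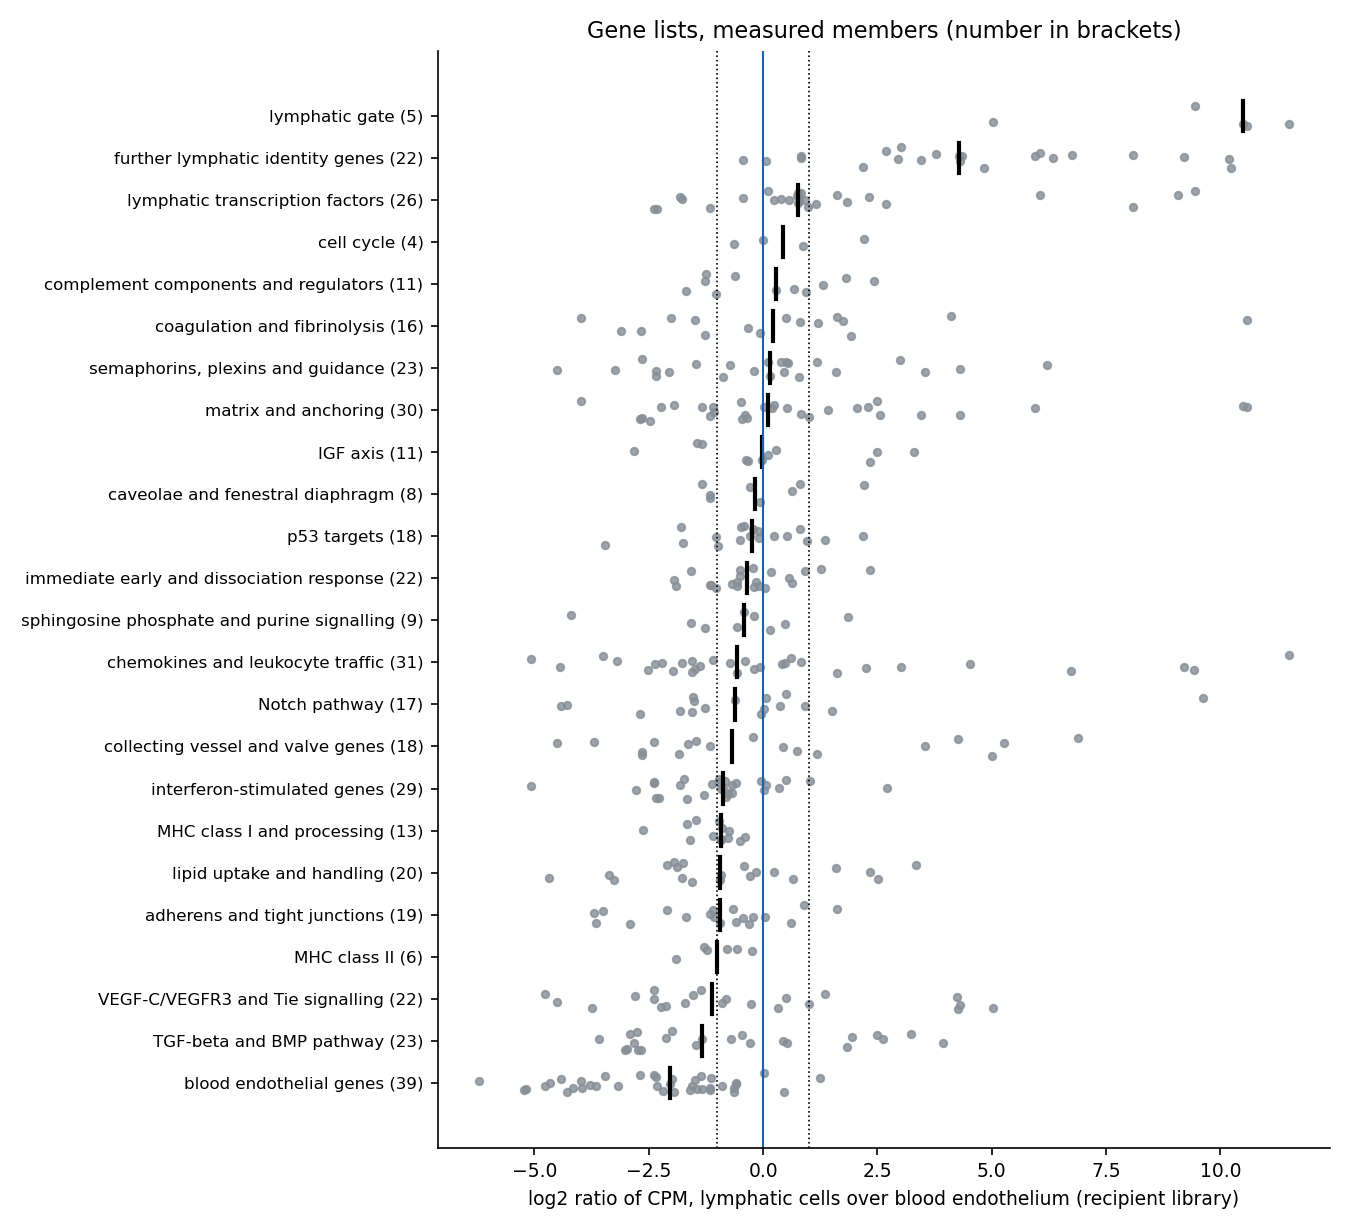
Log2 ratio of CPM in lymphatic cells over blood endothelium of the recipient library, 1 point per measured gene, for the gate genes and the other gene lists, with the number of measured members in brackets. Black bars mark medians, the blue line marks the median of all 9901 genes and the dotted lines a 2-fold difference. Medians run from -2.03 for blood endothelial genes to 4.29 for the further lymphatic identity genes, and the gate genes, which chose the cells, have a median of 10.5.

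Setting the lymphatic cells against separate classes of the recipient library, each picked by its own markers, showed which genes they shared with which class. Ptx3, Thy1, Mrc1, Stab2 and Tbx1 had 0 to 12.4 CPM in each of the venous, arterial, general capillary, aerocyte, pericyte, fibroblast and alveolar type 1 classes. Veins, from which lymphatic endothelium arises in the embryo, shared more. The 26 venous cells had more Lyve1 than the 75 lymphatic cells, 732 CPM in lymphatic and 1477 CPM in venous cells. Aqp1 was similar, at 2820 and 2376 CPM. The identity gene Lbp was detected in 73.3% of lymphatic and 88.5% of venous cells, whose median depths were 4880 and 8573 UMIs. With each cell thinned to 2000 UMIs, the Lbp shares were 50.7% and 50%. Other identity genes were not shared in this way, such as Maf (96% and 3.85% of cells, not thinned) and Pdpn (86.7% and 0%). Vegfc, the growth factor of lymphatic vessels, was at 4.39 CPM in lymphatic cells, 417 CPM in venous and 81.2 CPM in general capillary cells, while Vegfd was at 15.4 CPM in lymphatic cells and 431 CPM in fibroblasts. Vcam1 (6.58 CPM in lymphatic cells, 1759 CPM in venous cells) separated lymphatic from venous cells. Selp (2.19 and 499 CPM) and Ackr1 (0 and 122 CPM) did so by construction, since they were among the genes that picked the venous class.

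Other markers were shared with cells outside the endothelium. Pdpn had 452 CPM in lymphatic cells and 1107 CPM in alveolar type 1 cells. Nr2f2 had 888 CPM in lymphatic cells, 831 CPM in pericytes and 591 CPM in fibroblasts, and Cp had 653 CPM in lymphatic cells and 519 CPM in fibroblasts. Nrp2 had 1180 CPM in lymphatic cells and 174 CPM in venous cells, the class next below, and Maf had 1254 CPM in lymphatic cells and 137 CPM in the arterial class. The arterial class is a loose one, since only 29.5% of its 44 cells had a UMI of the endothelial gene Pecam1.

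Transcripts of the gate genes also turned up at low shares in cells of other types. Ccl21a was detected in 100% of lymphatic cells, 10.6% of blood endothelial cells, 12.5% of pericytes, 10.9% of fibroblasts and 14.3% of alveolar type 1 cells, whose median depths were 4880, 6744, 5138.5, 6861.5 and 13657 UMIs. After thinning each cell to 2000 UMIs the shares were 100%, 2.84%, 5.28%, 2.90% and 2.62%. The thinned share in blood endothelium thus lay within the range of cell types that should lack the gene, and it is not read as expression. Flt4 differed. It was detected in 22.3% of blood endothelial cells and 28.8% of aerocytes but in 0.577% of pericytes, and thinned shares were 8.44%, 11.9% and 0.196%.

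**Figure D4:**
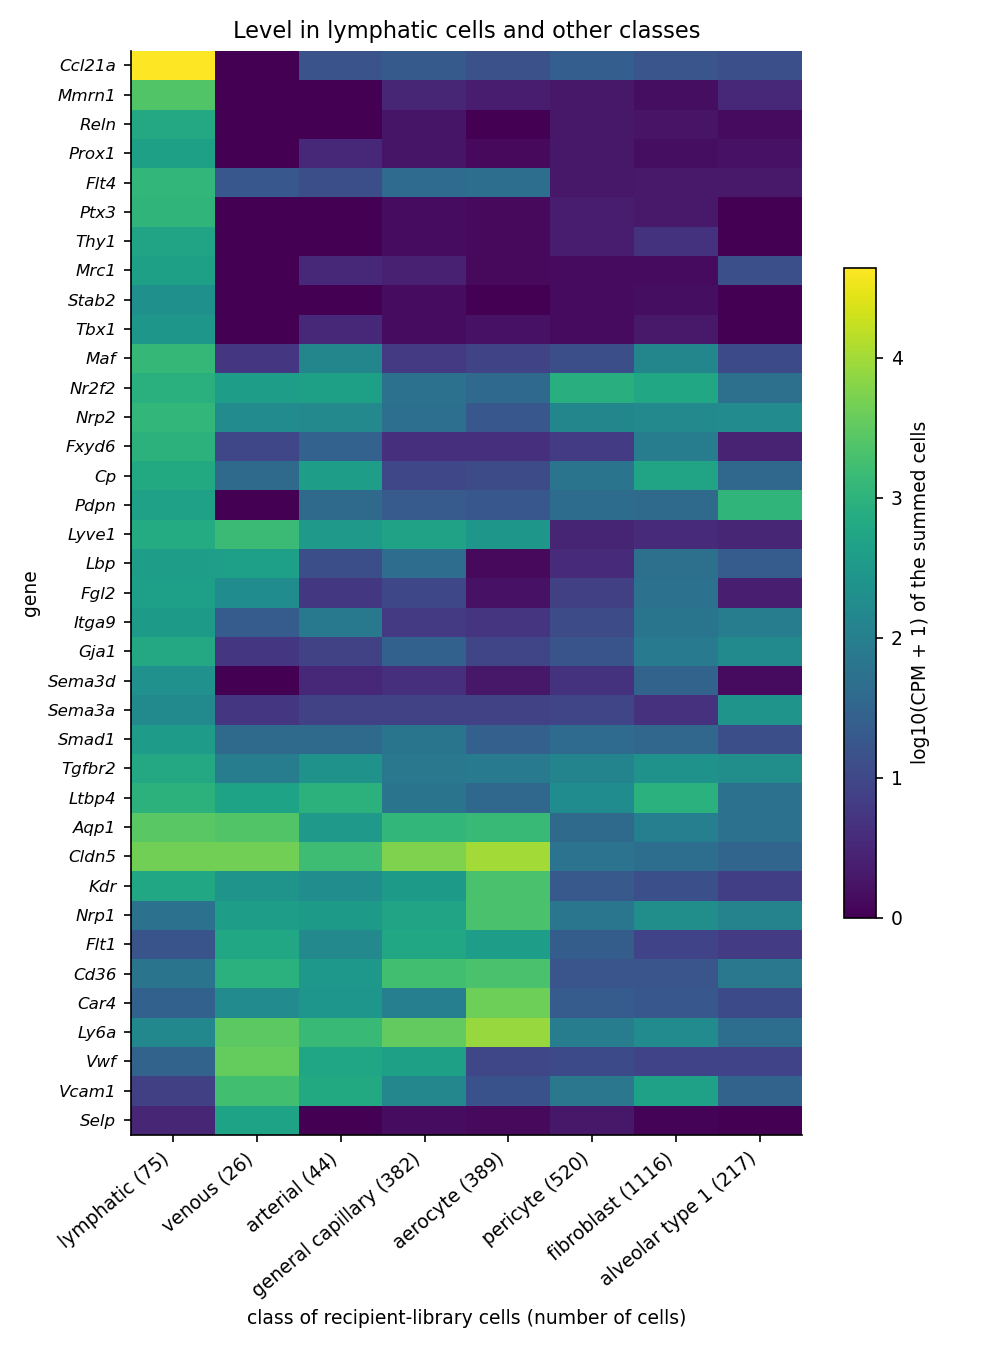
Level of selected genes, as log10 of CPM plus 1 of the summed cells, in lymphatic cells and the other classes of the recipient library, with the number of cells in brackets. Ptx3, Thy1, Mrc1, Stab2 and Tbx1 are bright in the lymphatic column alone, Lyve1 and Aqp1 are shared with venous cells, and Pdpn with alveolar type 1 cells.

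The 75 recipient-library cells were not uniform. Ptx3, Mrc1 and Stab2 were found together in 27 cells, and 68 cells had Ptx3 or Mrc1. Lyve1 was detected in 44 cells and not in 31, with median depths of 5415 and 4565 UMIs. The cells were divided by values already seen, so the following is a description without a test. Prox1 stood at 426 CPM in cells with Lyve1 and 449 CPM in cells without it (ratio 0.948, interval 0.706 to 1.28). Stab2 was lower in cells with Lyve1, 118 against 371 CPM (0.317, 0.202 to 0.489), and so were Cd74, 107 against 485 CPM (0.221), and H2-Ab1, 79.6 against 227 CPM (0.350), both of MHC class II. Of the 81 Cd74 UMIs in cells without Lyve1, 30 and 22 lay in 2 cells, and without that pair Cd74 stood at 107 against 191 CPM (0.563, 0.328 to 0.968). Icam1 was higher in cells with Lyve1, 287 against 35.9 CPM (8.00), and Col18a1, the gene of collagen XVIII, 170 against 35.9 CPM (4.72). The alveolar type 1 gene Ager stood apart too, at 1260 against 41.9 CPM (30.1), and 348 of its 364 UMIs in cells with Lyve1 lay in the cell of 25894 UMIs, which had 1 Lyve1 UMI. Without that cell the ratios were 1.45 for Ager (0.565 to 4.17), 5.19 for Icam1 (2.22 to 14.8) and 4.98 for Col18a1 (2.12 to 14.2).

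None of the 75 recipient-library cells carried more than 3 of 5 valve genes, while the donor-library cell of 21681 UMIs had 4. Of Foxc2, Cldn11, Itga9, Gata2 and Gja4, 17 recipient-library cells had 0, 32 had 1, 15 had 2 and 11 had 3, and 0 cells had more. The 26 cells with at least 2 were deeper, with a median of 7386 UMIs against 4412 UMIs in the other 49. Depth alone raises the number of genes found. The 26 include the cell with 1 Ccl21a UMI and 41 Plvap UMIs, which had Gata2 and Gja4. Gata2 was itself lower in lymphatic cells than in blood endothelium. The part of such cells in the following ratios was not tested. Ptx3 was lower in the cells with 2 or more valve genes than in the rest, at 826 and 1261 CPM (ratio 0.655, interval 0.537 to 0.796), as was Mrc1, at 301 and 509 CPM (0.591, 0.424 to 0.815), while Prox1 stood at 452 and 423 CPM (1.07, 0.795 to 1.43).

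A handful of cells carried Nts. They numbered 7, with 2, 60, 2, 5, 10, 10 and 8 Nts UMIs, and 3 of them had a barcode also present in the donor library. All 7 had Lyve1, and 5 had Igfbp5, which accounts for 308 of the 362 Igfbp5 UMIs of the group. Compared with the other 68 cells, the 7 had 5891 against 134 CPM of Igfbp5 (ratio 44.0, interval 32.9 to 60.0), 2353 against 523 CPM of Lyve1 (4.50, 3.57 to 5.65) and 38.3 against 523 CPM of Plvap (0.0732, 0.00881 to 0.268). Stab2 stood at 38.3 against 233 CPM (0.164) and Ccl21a at 27487 against 46156 CPM (0.596). The cell with 60 Nts UMIs held 250 of the Igfbp5 UMIs, and the other 4 cells with Igfbp5 held 17, 13, 14 and 14. Of the 123 Lyve1 UMIs of the 7 cells, 64 lay in 1 cell, which had 2 Nts UMIs and 0 Igfbp5 UMIs.

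**Figure D5:**
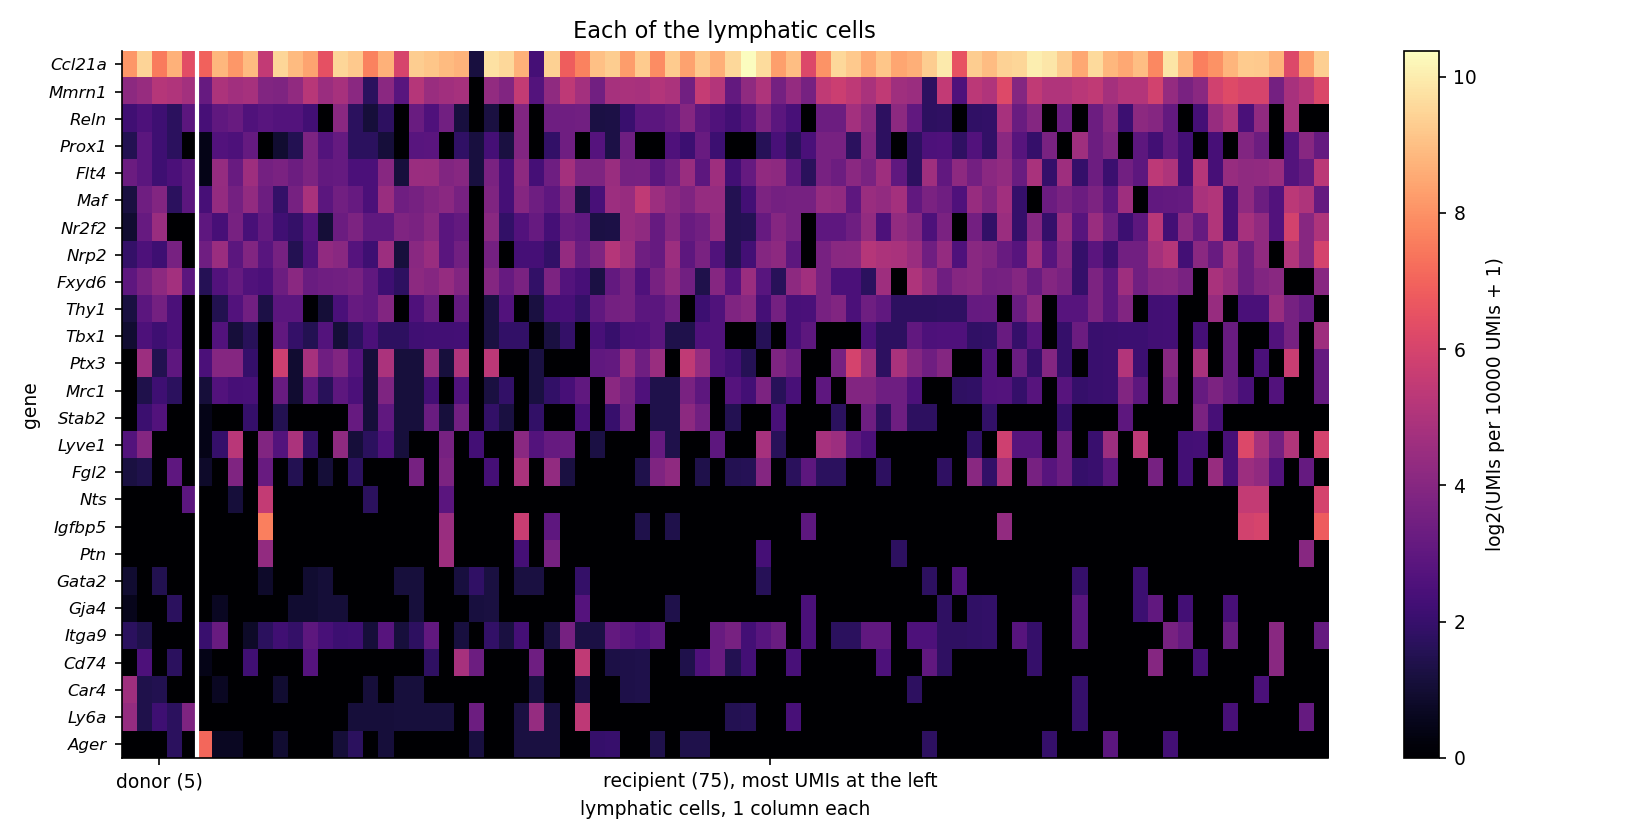
Level of selected genes in each lymphatic cell, as log2 of UMIs per 10000 plus 1, with the 5 donor-library cells at the left and the 75 recipient-library cells ordered from most to fewest UMIs. Ccl21a and Mmrn1 fill nearly every column, Ptx3, Stab2 and Lyve1 are patchy, and Nts and Igfbp5 share a few columns. Car4 stands out in the first donor-library cell. Ly6a has 19.8 UMIs per 10000 there, but 41.0 and 20.2 in the recipient-library cells of 7066 and 7414 UMIs.

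The 5 donor-library cells had 21681, 6237, 5695, 4364 and 1569 UMIs. In that order, Ccl21a had 605, 443, 105, 179 and 13 UMIs, Mmrn1 36, 13, 20, 14 and 4, and Prox1 4, 4, 2, 1 and 0. The identity gene Maf, outside the gate, had 3, 6, 8, 1 and 1 UMIs, and Thy1 3, 4, 6, 2 and 0. The 4 deeper cells thus had UMIs of both genes. The shallowest had 1 Maf UMI and no UMI of Thy1, Pdpn, Nrp2 or Nr2f2, together with 4 UMIs of Pf4 and 3 of Itga2b, markers of platelets. A Maf UMI was found in 1.45% of the 4751 donor-library blood endothelial cells. The deepest cell also carried blood endothelial transcripts, with 52 UMIs of Car4, 49 of Ly6c1 and 49 of Cdh5, against 1, 1 and 7 in the next deepest cell. Whether that droplet held more than 1 cell was not tested. It contributed 21681 of the 39546 UMIs of the donor-library lymphatic cells.

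Levels in the donor-library cells are therefore given with and without it. Ccl21a stood at 34011 CPM over the 5 donor-library cells and 41422 CPM over the 4, against 44016 CPM in recipient-library cells. Mmrn1 had 2200 and 2855 CPM against 2460 CPM, Thy1 379 and 672 against 520 CPM, and Nr2f2 480 and 952 against 888 CPM. For Mmrn1, Thy1 and Nr2f2 the recipient-library level lay between the donor-library levels of 5 and 4 cells, and for Ccl21a above both. For Maf (480 and 896 CPM against 1254 CPM), Nrp2 (405 and 560 CPM against 1180 CPM) and Flt4 (708 and 504 CPM against 1210 CPM) the donor-library level was lower either way. Over the 4 cells, the intervals of Maf (512 to 1454 CPM) and Ccl21a (38491 to 44517 CPM) included the recipient-library level. Those of Nrp2 (268 to 1029 CPM) and Flt4 (230 to 956 CPM) lay below it. The capillary gene Car4 was at 1366 CPM over 5 cells, 112 CPM over 4 and 26.3 CPM in the recipient library.

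Counting error was wide for most genes in so few donor-library cells. The ratio of donor-library over recipient-library cells was 0.773 for Ccl21a (interval 0.731 to 0.817), 0.894 for Mmrn1 (0.710 to 1.11) and 0.585 for Flt4 (0.385 to 0.855). Without the deepest cell these ratios were 0.941, 1.16 and 0.416. Of the 22 measured immediate early genes, 10 had an interval below 1, 1 had one above 1 and 11 had one that included 1. Without the deepest cell these numbers were 5, 0 and 17. The same count over all genes was not made, so these numbers do not set the list apart from other genes. The ratio was 0.225 for Fos (0.168 to 0.296), 0.348 for Junb (0.251 to 0.472) and 0.425 for Dusp1 (0.296 to 0.593), and without the deepest cell 0.414, 0.287 and 0.418. Jun was level at 1.01 (0.824 to 1.23). Hspa1b, a heat shock gene, had 9 UMIs in the donor-library cells, all in the deepest one, and a ratio of 5.46 (2.18 to 12.7). Mrc1 had 4 UMIs in donor-library cells and 195 in recipient-library cells, a ratio of 0.237 (0.0638 to 0.615), or 0.524 without the deepest cell. Igfbp5 and Ifi27l2a had 0 UMIs in the donor-library cells and 362 and 178 in the recipient-library cells. Of the 75 recipient-library cells, only 11 had Igfbp5, with 250 of its UMIs in 1 cell, and 33 had Ifi27l2a. With 1 library on each side, these values compare 2 libraries and not donor with recipient cells in general.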

How the data were processed

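Per the labels' protocols, lung cells were sequenced on the 10x Genomics platform and aligned to mm10. Deposited were UMI counts, not normalized, as filtered gene-by-barcode matrices that the authors made with Cell Ranger, version 4.0.0 per the file headers and the submitters' processing notes. The labels' protocol gives another version, and which one made the counts is unresolved. Each matrix held 32285 genes, and 38 symbols with more than 1 identifier were kept apart. Gene positions came from a GRCm38 annotation, matched by identifier for 32158 genes.

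Cells needed at least 1000 UMIs and under 7% mitochondrial UMIs, and a barcode in both libraries kept only its copy with more UMIs. Doublets were kept in the main values. UMIs were summed per group and scaled to CPM, with exact Clopper-Pearson, Poisson or conditional binomial 95% intervals. A count of 0 was replaced by 3 counts over the group to give a ratio, which leaves out the counting error of the other group. Cells were thinned to 2000 UMIs for detection shares. The calculations, in Python 3.11.15 with numpy 2.4.6, scipy 1.17.1, pandas 2.3.3 and, for doublet scores, scanpy 1.11.5, were tested on simulated data.

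The members, the 24 gene lists and the class markers were chosen with earlier results of these data known. Genes were named when they had at least 50 CPM in the higher group, were 4-fold apart with an interval excluding 2-fold, were found in 20% of that group's cells and had at most 25% of its UMIs in 1 cell. Gate, Cdh5, mitochondrial, ribosomal, haemoglobin, sex-linked and unnamed genes were left out, and 15 each way were taken of 190 higher and 283 lower. List members at least 2-fold apart with an interval excluding 1.5-fold, up to 4 each way, and members whose role is described were named too, except some that are not reported here. The separation of cells by Lyve1, Nts or co-detected genes was chosen after the values were seen. Alternatives were tried for the gate, filters, shared barcodes, doublets, scaling, depth, blood endothelial group and minimum level. Restricting lymphatic cells to those with Cdh5, leaving out the deepest donor-library cell, and leaving out cells with leukocyte markers, most Ager or most Cd74, were chosen after seeing the data.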

Additional observations from a re-analysis of the deposited data

Results flagged for a closer look

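Barcodes that the filters had left out also passed the lymphatic gate. In the donor library these were 10 of 1374 left-out barcodes (0.728%, exact Clopper-Pearson interval 0.350 to 1.33), above the 0.218% that a count of 0 allows. Of the 10, 9 had under 1000 UMIs and 8 were the smaller copy of a barcode shared with the recipient library. In the recipient library they were 18 of 432 (4.17%, 2.49 to 6.51), above the 0.694% that a count of 0 allows, and 17 of them exceeded the mitochondrial limit.

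For Fos, Serping1 and Vegfd the log2 ratio of lymphatic cells over blood endothelium had opposite signs in the 2 libraries. The difference was not tested, and the donor-library values rest on 5 cells. Fos, an immediate early gene, had a ratio of -0.53 in the donor library (1340 and 1934 CPM) and 1.27 in the recipient library (5947 and 2459 CPM). Without the deepest donor-library lymphatic cell, Fos stood at 2463 and 1934 CPM in the donor library (log2 0.35), the same sign as in the recipient library. Serping1 and Vegfd had no UMI in that cell. Serping1 had 3.59 in the donor library (75.9 and 6.30 CPM) and -1.27 in the recipient library (83.3 and 201 CPM). Vegfd had 3.16 in the donor library (50.6 and 5.64 CPM) and -2.12 in the recipient library (15.4 and 66.6 CPM). The donor-library lymphatic levels of Serping1 and Vegfd come from 3 and 2 UMIs, all in the same cell. It is the shallowest, with 1569 UMIs, and also had 4 UMIs of Pf4 and 3 of Itga2b, markers of platelets.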

How the results depend on the processing

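A gate of at least 2 of 5 genes gave 636 genes higher and 393 lower, 11 lower members of the blood endothelial list, 3 of the TGF-beta and BMP list, lymphatic shares of 0.425% in the donor and 3.76% in the recipient library, and a log2 ratio of 0.54 for Mgp (main value -1.95). By construction it adds the 16 donor-library and 51 recipient-library cells with exactly 2 gate genes. Leaving out cells with markers of other classes gave a recipient-library share of 7.13% and turned Lrp1 to 0.63 (main -1.88) and Serping1 to 1.01 (main -1.27). Serping1 also turned to 0.034 with Cdh5 and Pecam1 both required of blood endothelium and to 0.62 with both libraries together, where C4b turned to 0.19 (main -1.68). With no minimum level 2380 genes were higher, and with at least 50 CPM 491 were higher and 666 lower, since other numbers of genes entered. The further identity list had 18 to 20 higher members under the alternatives. Of 3332 values of 196 named genes under the alternatives, 6 were reversed and 137, in 95 genes, came under 2-fold. Apart from these constructions, the cause of each change was not tested. The automatic doublet threshold marked 0.0317% of donor-library barcodes and was not used, and the highest scores were left out instead. Depth limits ratios that rest on few UMIs and every value of the 5 donor-library cells. No paired analysis was possible because each group is 1 library.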
